A study of Mus musculus with 8 samples.

Results

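The genes described here are 9 interferon-stimulated genes of the mouse brain: *Ifit1*, *Ifit2*, *Ifit3*, *Irf1*, *Irf7*, *Mx1*, *Usp18*, *Rsad2* and *Cxcl10*. They were taken as every non-control probe on the array whose gene name was one of these symbols, which gave 15 probes of 41174, for 9 genes of 19505 that were named. *Ifit1*, *Irf7*, *Usp18* and *Cxcl10* had a single probe each, and for the other 5 genes the brightest probe over all arrays led the description. The rule used names and no measured value, but the genes were chosen with earlier results of these data known. Counts of them set beside all probes are thus a description.

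Interferons are secreted signals of the innate response to infection and tissue damage. Bound to their receptors, they activate kinases of the JAK family, JAK1 and TYK2 among them. Through these kinases they activate transcription factors that bind the interferon-stimulated response element (ISRE) or the gamma-activated site (GAS) in front of their target genes. The products of those genes sense nucleic acids, block viral replication, present antigen and call in leukocytes, and they can be made in brain by microglia, astrocytes, endothelial cells and leukocytes that enter after an ischemic injury.

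The study followed gene expression in the mouse brain after permanent middle cerebral artery occlusion (PMCAO), an intraluminal filament model of focal ischemia, and asked what the neuropeptide PACAP38 (pituitary adenylate cyclase-activating polypeptide) does to it. Male C57BL/6J mice aged 8 to 12 weeks had a sham operation or PMCAO and right afterwards received either 1 µl saline or 1 pmol PACAP38 in 1 µl into a cerebral ventricle. That age range is from the sample records, while the methods give a single age within it. Brains were taken at 6 h or 24 h, which gives 8 groups: sham with saline, sham with PACAP38, PMCAO with saline and PMCAO with PACAP38 at each time. According to the methods, each group was 1 pool of RNA from the ipsilateral hemisphere of 3 mice, without olfactory bulb and cerebellum, and PMCAO mice entered a pool only with a neurological grade of 1 or 2. No group was without surgery or injection, and the hemisphere held ischemic core, penumbra and spared tissue together, so fewer cells of a type and less RNA per cell cannot be told apart in these data.

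The RNA was measured on Agilent two-colour arrays with 60-base probes. Each array held the saline and the PACAP38 pool of 1 operation and 1 time. Array 1 carried saline in Cy3 and PACAP38 in Cy5, and array 2 had the dyes exchanged. According to the methods both arrays carried the same pooled RNA, while the labels number them as Pooled 1 and Pooled 2. They were counted as 1 replicate, and a difference between single pools has no test. PACAP38 over saline was read from the log ratio within each array. PMCAO over sham was read between arrays, from channels of the same dye, treatment and time, after each channel was scaled to the same 75th percentile, and the levels given below are such scaled signals. Within a comparison a gene was called higher above 1.5-fold and lower below 0.75-fold of the mean of both arrays. All 6 h arrays lay on 1 slide and all 24 h arrays on another, so time and slide cannot be told apart, while sham and PMCAO shared a slide at each time.

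Array 2 of sham 6 h stood apart from the rest. Outlier spots made up 10.7% of it against 0.323% to 3.09% of the other arrays. The SD of the log2 difference between its levels and those of array 1, over all probes, was 1.29, against 0.387 to 0.432 for the other 3 array pairs. Of 14 member probes with a value on both sham 6 h arrays, 6 differed more than 2-fold between them, beside 43.3% of all probes. Every PMCAO over sham value at 6 h of a probe with a usable spot there rests on that array in part, so those values are given array by array. The ratios of PACAP38 over saline, formed within an array, were less affected: the SD of their difference between the 2 arrays was 0.733 over all probes, against 0.660 to 0.777 in the other comparisons. Summed over 6 astrocyte markers, the sham 6 h level was 295367 with saline and 270288 with PACAP38, while the other 6 pools lay between 59348 and 69607.

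The 3 probes of *Rsad2* and the probes of *Cxcl10* and *Irf1* are shown here because these genes had the largest PMCAO over sham differences at 24 h (*Cxcl10* and *Rsad2*) or were lower with PACAP38 on both arrays in PMCAO at 24 h (*Rsad2* and *Irf1*). The 60-base probes do not carry a part of special interest, so there are no capitals, and the positions are those printed in the array files, in the mouse build mm7 of the array design.
Rsad2 lead probe, chr12:24278814-24278873, minus strand: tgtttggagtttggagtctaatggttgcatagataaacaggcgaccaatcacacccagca
Rsad2 second probe, chr12:24281379-24284417, minus strand: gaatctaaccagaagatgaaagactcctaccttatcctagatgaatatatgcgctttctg
Rsad2 most upstream probe, chr12:24286540-24289841, minus strand: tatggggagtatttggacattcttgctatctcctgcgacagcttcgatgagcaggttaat
Cxcl10, chr5:92334002-92334061, minus strand: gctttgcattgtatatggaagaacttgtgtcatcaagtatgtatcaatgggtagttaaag
Irf1 lead probe, chr11:53733970-53734029, plus strand: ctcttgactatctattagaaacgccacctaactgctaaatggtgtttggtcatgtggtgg
The other *Rsad2* probes, apart from the lead, cover far more genome than their 60 bases, so each spans an intron, and no pair among the 3 shares a run of more than 6 bases. The 3 probes thus read separate stretches of the *Rsad2* transcript, with the lead probe the most 3′ of them. The annotation of exons and untranslated regions in that build was not used here.

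Promoter windows of RefSeq on GRCm38.p6, from 250 bases before to 50 after a transcript start, were found for 7 of the 9 genes, with 2 starts each for *Ifit2* and *Irf1*. *Mx1* and *Usp18* had none among those windows. The ISRE core was searched on both strands as GAAA, any 2 bases and GAAA (TTTC, 2 bases and TTTC when read from the other strand), and the GAS as TTC, any 3 bases and GAA, which reads the same on both strands. Of 32851 mouse promoters of this length, 3.44% held the first and 8.3% the second. The ISRE letters were found in *Ifit1* (at 104 and 85 bases before the start), *Ifit3* (at 156 and 122), *Rsad2* (at 120) and *Cxcl10* (at 213), and the GAS letters in *Irf1* (at 90) and in 1 start of *Ifit2* (at 241). The windows around the matches in 5 of these genes are printed on the gene's own strand, with the matched letters in capitals.
Ifit1, chr19:34640745-34640853, plus strand: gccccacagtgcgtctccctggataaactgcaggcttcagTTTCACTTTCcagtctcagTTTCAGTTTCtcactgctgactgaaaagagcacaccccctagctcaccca
Ifit3, chr19:34583333-34583456, plus strand: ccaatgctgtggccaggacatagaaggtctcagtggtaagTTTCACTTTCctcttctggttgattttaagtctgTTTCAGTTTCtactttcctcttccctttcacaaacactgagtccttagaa
Rsad2, chr12:26456523-26456612, minus strand: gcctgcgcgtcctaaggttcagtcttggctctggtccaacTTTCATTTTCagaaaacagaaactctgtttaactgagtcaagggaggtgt
Cxcl10, chr5:92349053-92349139, minus strand: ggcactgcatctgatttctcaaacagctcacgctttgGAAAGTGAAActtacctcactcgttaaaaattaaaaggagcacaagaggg
Irf1, chr11:53769884-53769972, plus strand: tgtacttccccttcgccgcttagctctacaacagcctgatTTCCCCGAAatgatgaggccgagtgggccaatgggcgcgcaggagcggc
A match is a description of letters and not of a bound site.

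At 24 h after PMCAO, interferon-stimulated genes were higher than in sham brain with either treatment. *Cxcl10*, which encodes a chemokine for T cells and natural killer cells, was 10.3-fold above sham in the saline pools and 16.1-fold in the PACAP38 pools. Among the genes well above background in sham and PMCAO, *Rsad2*, which encodes the antiviral enzyme viperin, followed with 5.6-fold and 3.32-fold. All 9 genes lay above zero in both comparisons. With saline, 7 of 9 genes passed 1.5-fold, beside 9.56% of all probes, and 6 of them did so on both arrays, beside 5.74%. With PACAP38, 7 of 9 passed, beside 6.39%, and all 7 did on both arrays, beside 3.13%. The median log2 difference of the 9 genes was 0.81 with saline and 1.1 with PACAP38, and that of all probes was 0.02 and 0.03. No gene of the 9 was called lower, in the mean or on both arrays, beside 13.3% and 7.57% of probes with saline and 8.19% and 3.2% with PACAP38. *Mx1* counts among the 7 in each case but was not well above background in the sham pools. The size of its difference is thus not known, and with saline no lower limit could be given. The count depends on background correction and normalization together: with a normexp correction, which adds 50 to each signal, followed by loess within each array, 3 genes (*Cxcl10*, *Rsad2*, *Irf1*) passed with saline, beside 2.7% of all probes, and 4 (*Cxcl10*, *Rsad2*, *Ifit3*, *Usp18*) with PACAP38, beside 1.09%.

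**Figure D1:**
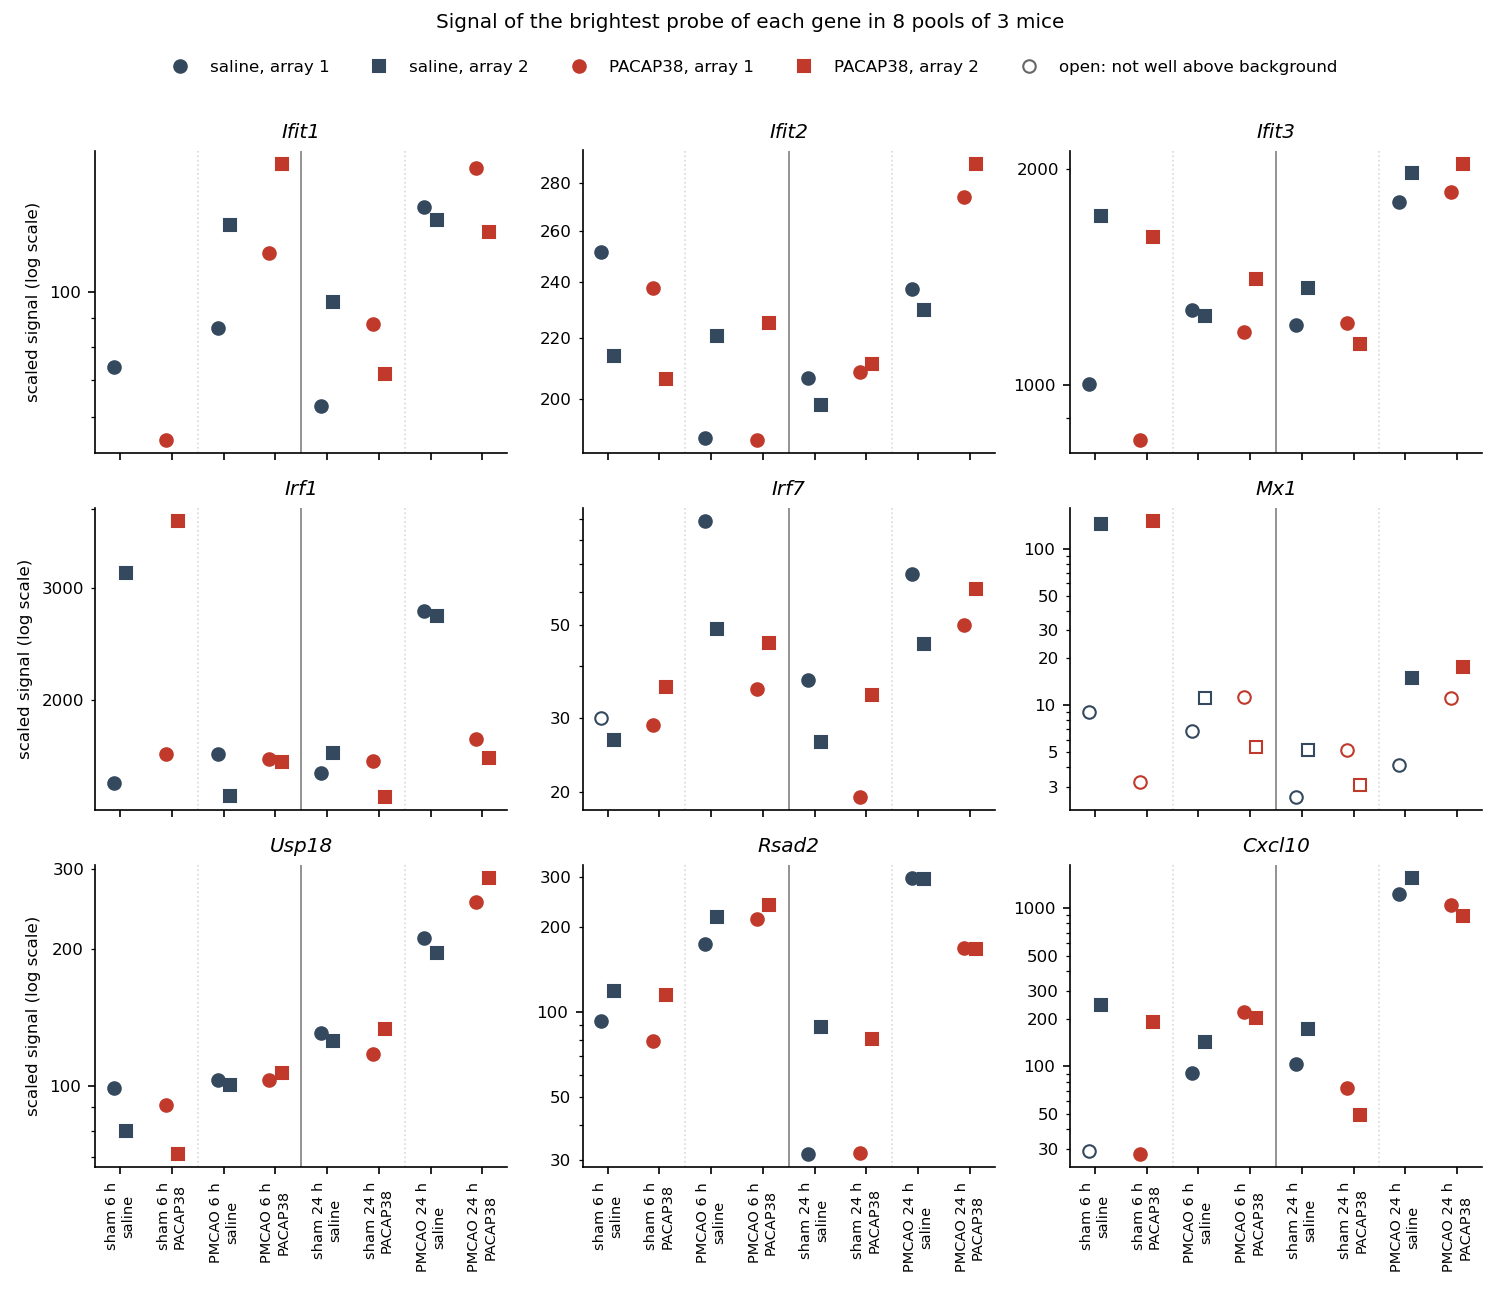
Scaled signal (log scale, a scale of its own for each gene) of the brightest probe of each of the 9 genes in the 8 pools, with saline pools in blue and PACAP38 pools in red. Circles are array 1 and squares array 2, open symbols are not well above background, the solid line separates 6 h from 24 h, and the second array of sham 6 h lies far from the first for *Irf1*, *Mx1* and *Cxcl10*.

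Of the transcription factors, *Irf1* encodes an early activator that interferon gamma induces. Its level at 24 h was 1531 and 1650 in sham with saline (array 1 and array 2) and 2765 and 2712 in PMCAO with saline. It was 1605 and 1408 in sham with PACAP38 and 1738 and 1621 in PMCAO with PACAP38. The PMCAO pool with saline thus stood above the other 3 pools of that time on both arrays, and the PACAP38 pools lay close together, with values from 1408 to 1738. PMCAO over sham was 1.72-fold with saline (log2 0.85 and 0.72) and 1.12-fold with PACAP38 (log2 0.12 and 0.20). The second, far dimmer probe of *Irf1* gave 1.75-fold and 1.30-fold. *Irf1* was the gene among the 9 that passed 1.5-fold with saline and not with PACAP38, a difference between treatments that has no test here.

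*Irf7* encodes the factor that sustains type I interferon production once interferon has been sensed. Its probe was dim, at 37.0 and 26.3 in sham with saline and 66.2 and 45.2 in PMCAO with saline. With PACAP38 the levels were 19.5 and 34.2 in sham and 50.2 and 61.0 in PMCAO. Within each treatment and dye the PMCAO pool was higher, by 1.75-fold with saline (log2 0.84 and 0.78) and 2.14-fold with PACAP38 (log2 1.36 and 0.83). No GAS or ISRE letters were found in the *Irf7* window.

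The *Ifit* genes lie side by side on chromosome 19 and encode proteins that bind foreign RNA and hinder its translation. *Ifit1* stood at 62.9 and 96.1 in sham with saline and at 142 and 134 in PMCAO with saline, and at 87.9 and 71.5 against 166 and 128 with PACAP38. No PMCAO channel lay below a sham channel at 24 h, and the differences were 1.78-fold with saline (log2 1.17 and 0.48) and 1.84-fold with PACAP38. *Ifit3* was at 1213 and 1368 in sham and 1800 and 1979 in PMCAO with saline, which is 1.46-fold and just short of the limit. With PACAP38 it was at 1222 and 1144 in sham and 1858 and 2033 in PMCAO, which is 1.64-fold and past it. Its second probe, placed 23968 bases from the first, gave 1.64-fold and 2.07-fold, but it may read a near-identical neighbouring copy and is uncertain. *Ifit2* had the smallest differences of the 3 genes, with 207 and 198 in sham against 237 and 230 in PMCAO with saline (1.15-fold), and 1.34-fold with PACAP38. A second *Ifit2* probe gave 1.46-fold and 1.33-fold.

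*Rsad2* had 3 probes, shown above. The lead probe read 31.6 and 88.3 in sham with saline and 297 and 296 in PMCAO with saline, against 31.7 and 80.7 in sham and 168 and 167 in PMCAO with PACAP38. Sham and PMCAO did not overlap. The 2 sham levels of each pool differed more than 2-fold between arrays, while the 2 dyes of an array read alike. The size of the difference thus varied between arrays: log2 3.23 and 1.74 with saline, and 2.41 and 1.05 with PACAP38. The second probe gave 3.71-fold with saline and 1.44-fold with PACAP38. The most upstream probe was not well above background in sham, and its level in PMCAO was at least 3.95-fold higher with saline and at least 1.71-fold higher with PACAP38, taking for sham the higher of its signal and the lowest signal measured well above background on that array. All 3 probes thus placed PMCAO above sham.

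*Mx1* encodes a GTPase that blocks influenza-type viruses, and C57BL/6J mice carry a defective allele of it. Its lead probe was well above background in 4 of 16 channels and its second probe in 2 of 16. At 24 h the sham levels were 2.60 to 5.13, all below background, and those of PMCAO 4.12 to 17.4. No fold can be given with saline, and with PACAP38 the level was at least 1.03-fold higher.

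*Usp18* encodes the protease that removes ISG15 from proteins and that limits signalling at the type I interferon receptor. Its level was 131 and 126 in sham and 212 and 197 in PMCAO with saline, and 118 and 134 against 254 and 286 with PACAP38. The groups did not overlap in either treatment. PMCAO over sham was 1.59-fold with saline (log2 0.70 and 0.64) and 2.15-fold with PACAP38 (log2 1.11 and 1.1). By the lead probes, 7 of the 9 genes, *Usp18* among them, had the larger PMCAO over sham value with PACAP38. The exceptions were *Irf1* and *Rsad2*. *Ifit1* differed little (log2 0.83 with saline and 0.88 with PACAP38), and *Mx1* was not well above background in sham. The second probes of *Ifit2* (0.54 and 0.42) and *Mx1* (1.77 and 1.13) were higher with saline, and that of *Ifit3* (0.71 and 1.05) with PACAP38. The share of all probes with the larger value under PACAP38 is not given here, and this difference between treatments has no test.

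*Cxcl10* had the widest range of the 9 genes at 24 h. It read 103 and 172 in sham and 1219 and 1538 in PMCAO with saline, and 72.4 and 49.6 against 1046 and 892 with PACAP38. Every PMCAO channel was more than 5 times every sham channel. The fold was 11.8 and 8.93 on the arrays with saline, and 14.4 and 18.0 with PACAP38, where the sham level was the lowest of the 4 pools. With normexp and loess the log2 values fell from 3.36 to 2.45 with saline and from 4.01 to 2.60 with PACAP38.

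**Figure D2:**
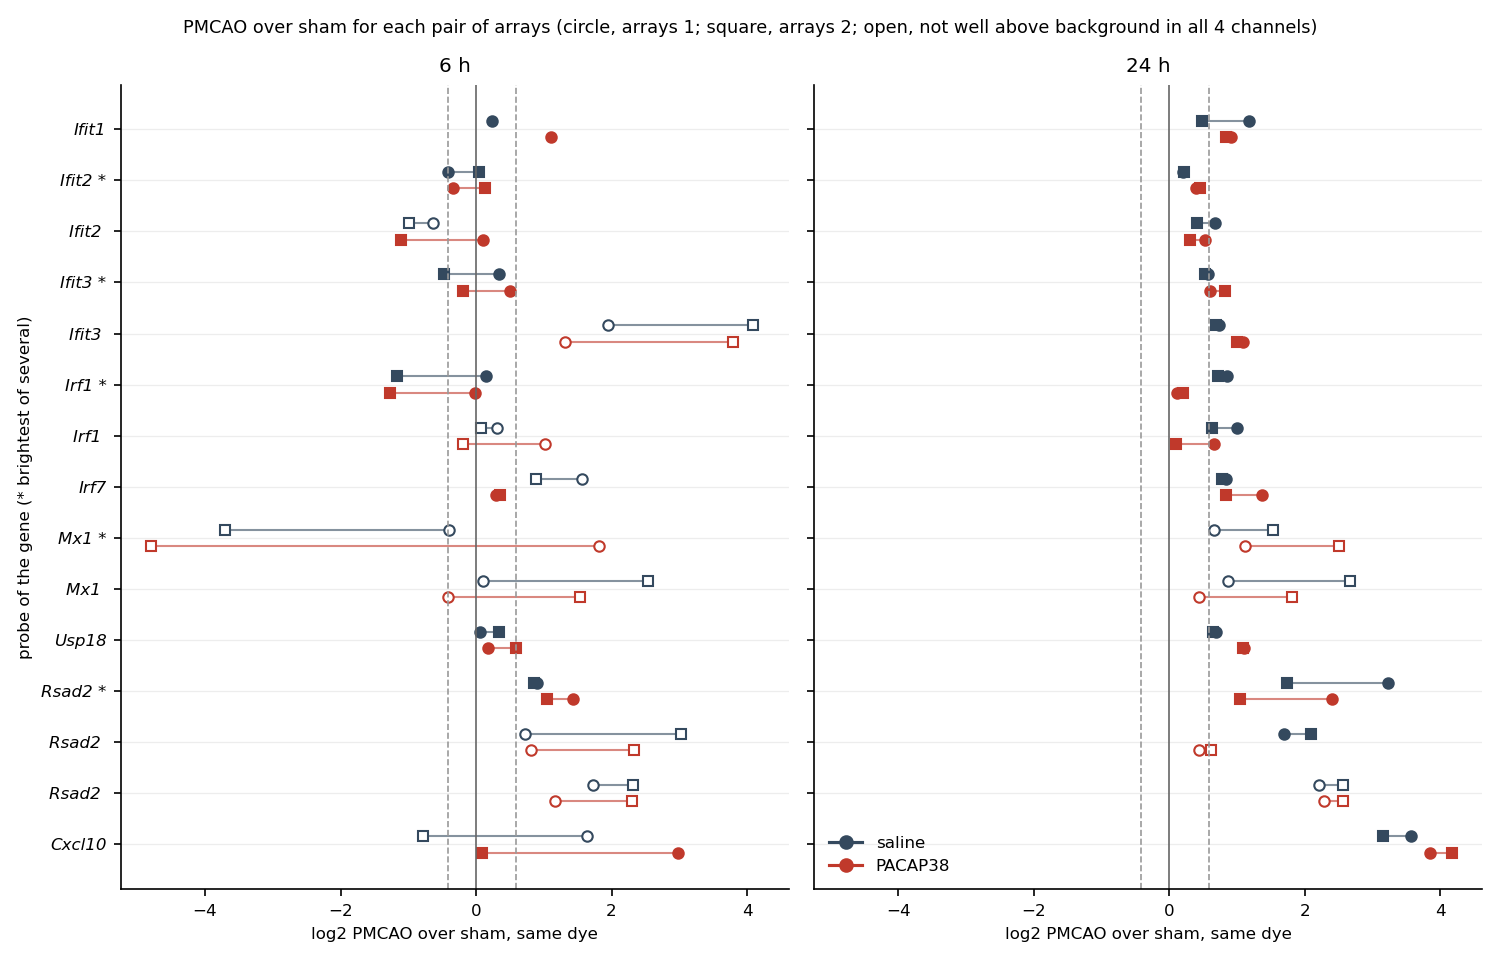
log2 of PMCAO over sham for each of the 15 probes at 6 h and 24 h (blue saline, red PACAP38, circles array 1, squares array 2, open where a channel was not well above background, dashed lines the limits of 0.75-fold and 1.5-fold). At 24 h all values lie above zero, while at 6 h the arrays of the brightest probes disagree in sign for *Ifit2* and *Ifit3* with both treatments, for *Cxcl10* and *Irf1* with saline and for *Mx1* with PACAP38.

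At 6 h the picture was less settled, since sham 6 h array 2 entered the PMCAO over sham values of every member but *Ifit1*. By the lead probes, *Rsad2* was the gene that passed 1.5-fold on both arrays with both treatments, beside 8.51% of probes with saline and 4.94% with PACAP38. Its lead probe read 92.8 and 119 in sham with saline against 174 and 216 in PMCAO, and 79.4 and 115 against 214 and 238 with PACAP38. No PMCAO channel reached down to a sham channel, and the differences were 1.84-fold and 2.36-fold. *Irf7* also passed on both arrays with saline (log2 1.56 and 0.88, 2.33-fold) but not with PACAP38 (log2 0.29 and 0.35, 1.25-fold).

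*Cxcl10* at 6 h shows the weight of that array. Its sham level with saline was 29.2, not well above background, on array 1 and 243 on array 2, and with PACAP38 it was 28.1 and 191. In PMCAO it was 90.9 and 142 with saline and 221 and 203 with PACAP38. PMCAO over sham was thus log2 1.64 on array 1 and -0.78 on array 2 with saline, and 2.97 and 0.08 with PACAP38. *Irf1* behaved likewise, with sham levels of 1481 and 3176 for saline and log2 differences of 0.15 and -1.17. *Mx1* was at 144 on array 2 of sham with saline and at 8.97 on array 1, and array 2 with PACAP38 was as high, at 149. *Ifit1* had no usable spot on that array, and its values from array 1 were log2 0.23 with saline and 1.1 with PACAP38.

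The other genes stayed closer to sham at 6 h. *Usp18* ran from 71.2 to 99.4 over the 4 sham channels and from 101 to 107 over the 4 PMCAO channels, which did not overlap but lay close. *Ifit2*, at 206 to 251.5 in sham and 188 to 225 in PMCAO, and *Ifit3*, at 840 to 1724 and 1185 to 1406, overlapped by their lead probes. The second, uncertain *Ifit3* probe did not: it read 6.12 to 25.0 in sham and 62.1 to 106 in PMCAO, with log2 differences of 1.95 and 4.09 with saline and of 1.31 and 3.79 with PACAP38. It was not well above background in sham with saline, where the difference was at least 4.17-fold. By the mean of both arrays and the lead probes, 2 genes were called higher and 2 lower with saline, beside 19.5% and 34.9% of all probes, and 3 higher and 2 lower with PACAP38, beside 17% and 30.6%. On both arrays 0 were lower, beside 12.4% with saline and 5.99% with PACAP38. By array 1 alone, 3 were higher and 1 lower with saline, beside 17.2% and 16.9%, and 4 higher and none (0) lower with PACAP38, beside 17.9% and 10.2%. The median log2 of the 9 genes was 0.19 with saline and 0.32 with PACAP38, and that of all probes -0.13 and -0.06.

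Differences over the pools were tested with limma across the 36121 probes with a value on every array, with Benjamini-Hochberg adjustment over all of them. For PMCAO over sham as a mean of 4 pool pairs, 1 probe (0.00277%) passed an adjusted p of 0.05 and none (0) of the members did. That probe reads *Atf3*, a stress-induced transcription factor, named here after its value was seen. Unadjusted, 8301 probes and 4 of 8 lead probes of the members had a p under 0.05. *Rsad2* had a mean log2 of 1.58 (SE 0.286) with an adjusted p of 0.132, and *Cxcl10* 2.33 (SE 0.596) with 0.157. By the mean of both arrays, PMCAO was above sham in 4 of 4 pool pairs for *Rsad2*, *Irf7*, *Usp18* and *Cxcl10*. The same held for *Ifit1*, which was not in the test and rests on array 1 at 6 h. For *Cxcl10* with saline at 6 h the arrays disagreed in sign (log2 1.64 and -0.78). The share of all probes above sham in every pair is not given here. The pairs of a time share arrays, and their p-values measure only the spread between these pools.

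The difference of PMCAO over sham between 24 h and 6 h passed for 11770 probes (32.6%), of which 7913 (21.9%) were higher at 24 h. Among the members 5 of 8 lead probes were called, each higher at 24 h: *Mx1* (log2 3.22, adjusted p 0.0025), *Cxcl10* (2.71, 0.00501), *Irf1* (1.05, 0.0129), *Ifit3* (0.59, 0.0175) and *Rsad2* (1.05, 0.0437). Other probes of these genes did not bear this out: the second *Ifit3* probe, which is uncertain, was called lower at 24 h (-1.91, 0.00753), and the remaining probes of *Mx1* (0.50, 0.317), *Irf1* (0.29, 0.519) and *Rsad2* (0.53, 0.228, and -0.52, 0.463) were not called. The second *Ifit2* probe was called higher (1.14, 0.0273). With sham 6 h array 2 left out, an alternative chosen after that array was seen to stand apart, 77 of 39400 probes (0.195%) passed and none (0) of the members, with 2 of 9 leads at an unadjusted p under 0.05. The log2 values were then 0.75 for *Mx1*, 0.41 for *Irf1*, 0.22 for *Ifit3* and 0.94 for *Rsad2*. That for *Cxcl10* was 1.38 with an adjusted p of 0.294, the highest over its 7 alternatives, which began at 0.000111. *Cxcl10* was called under 6 of 7 alternatives and *Mx1* under 5 of 6, but *Irf1* under 3 of 7, and *Ifit3* and *Rsad2* under 2 of 7 each. The same array entered both 6 h differences, so they are not independent, and time and slide cannot be told apart.

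PACAP38 over saline was then compared within arrays. In PMCAO at 24 h the members parted. *Rsad2* and *Irf1* were lower with PACAP38 on both arrays, *Cxcl10* was lower in the mean, and *Usp18*, *Ifit2* and *Ifit3* lay slightly above zero on both arrays. With 1 pool of 3 mice on each side there was no test of these differences.

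The lead probe of *Rsad2* gave log2 -0.81 and -0.80, a level 0.572 times that with saline. The second probe gave -1.21 and -1.18 and the most upstream one -0.70 and -1.23, so all 6 readings of the gene were lower with PACAP38. *Irf1* gave -0.66 and -0.72, or 0.619 times the saline level, while its dim second probe split, with -1.07 and 0.16. *Cxcl10* gave -0.21 and -0.77, and passed the lower limit on array 2 alone (mean 0.712-fold).

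The remaining genes were not called lower. *Usp18* gave 0.27 and 0.56 (1.33-fold), *Ifit2* 0.21 and 0.35, and *Ifit3* 0.05 and 0.06. The second *Ifit2* probe disagreed in sign, at -0.09 and -0.16. *Ifit1* and *Irf7* changed sign between arrays, at 0.23 and -0.05 and at -0.39 and 0.45. *Mx1* passed the upper limit with 1.44 and 0.25, near background. In all, 3 of 9 genes were called lower, beside 8.18% of probes, and 2 of them on both arrays, beside 3.75%. The single gene called higher was *Mx1*, beside 2.99%, and none (0) was on both arrays, beside 0.823%. The median of the 9 genes was 0.06, against 0.00 for all probes.

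**Figure D3:**
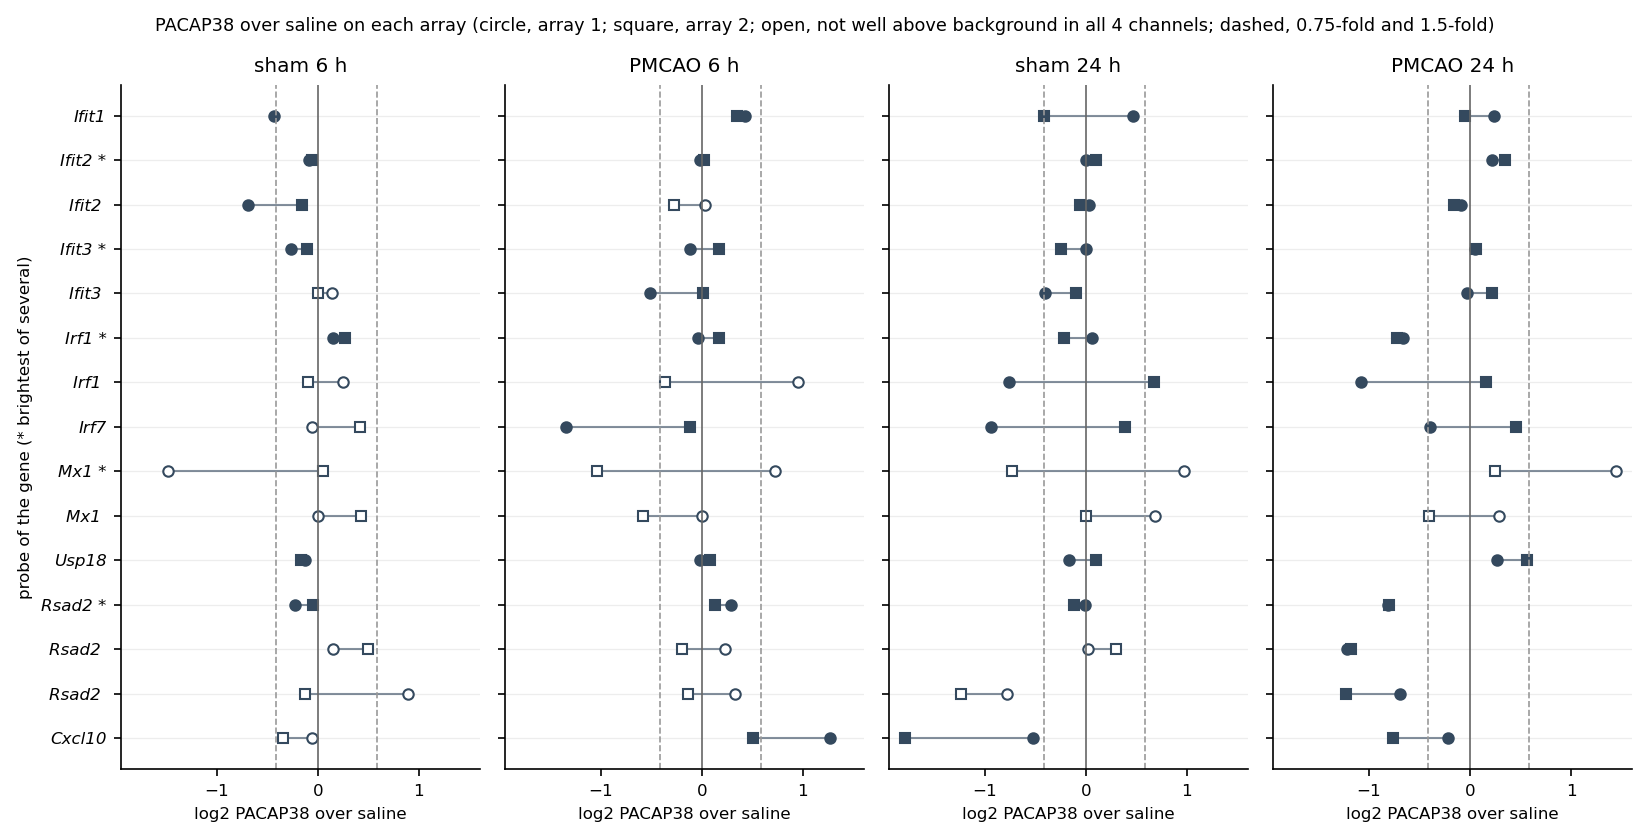
log2 of PACAP38 over saline for each of the 15 probes in the 4 comparisons (sham and PMCAO, 6 h and 24 h), with array 1 as circles, array 2 as squares and dashed lines at the limits of 0.75-fold and 1.5-fold. In PMCAO at 24 h the readings of the brightest *Rsad2* probe (-0.81 and -0.80) and those of *Irf1* (-0.66 and -0.72) lie together below zero.

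In the other comparisons few members moved, and seldom on both arrays. In PMCAO at 6 h, *Cxcl10* was higher with PACAP38 (log2 1.27 and 0.51, 1.85-fold), beside 5.41% of probes called higher, and *Irf7* was lower in the mean (-1.34 and -0.12), beside 6.9% called lower. Neither passed on both arrays, beside 1.14% higher and 1.63% lower. *Rsad2* was at 0.29 and 0.13 and *Ifit1* at 0.43 and 0.35 there. In sham at 24 h, *Cxcl10* was lower on both arrays (-0.52 and -1.79, 0.449-fold), the 1 call among 9, beside 3.87% lower in the mean and 0.892% on both arrays, with none (0) higher beside 1.75%. In sham at 6 h, *Ifit1* (from array 1) and *Mx1* were called lower, beside 7.48%, neither on both arrays, beside 1.04%, and none (0) higher, beside 3.98% in the mean and 0.79% on both arrays. *Rsad2* and *Irf1*, lower in PMCAO at 24 h, lay at -0.06 and -0.08 in sham at 24 h and at 0.21 and 0.07 in PMCAO at 6 h by their lead probes. The most upstream *Rsad2* probe was lower in sham at 24 h (-0.78 and -1.24), where it was not well above background.

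Over the 4 pool pairs no probe (0 of 36121) passed for PACAP38 over saline with limma, and 1583 (4.38%) had an unadjusted p under 0.05, none (0) of them a lead probe of the members. The lowest adjusted p among all member probes was 0.860. For the change of PACAP38 over saline from 6 h to 24 h, 0 probes passed and 1538 (4.26%) had an unadjusted p under 0.05. For the change from sham to PMCAO, 0 passed and 2026 (5.61%) had an unadjusted p under 0.05, among them *Ifit3*, with a difference of 0.19 (SE 0.0413, adjusted p 0.786). *Irf1* differed between 24 h and 6 h by -0.52 (SE 0.263, adjusted p 0.877) and *Rsad2* by -0.47 (SE 0.351, adjusted p 0.877). These p-values do not show that PACAP38 had no effect on the members.

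The rest of the interferon pathway was read from a list of 121 genes, of which 113 had a probe. In PMCAO over sham at 24 h with saline, 38 were called higher and 7 lower (30 and 3 on both arrays), beside 9.56% and 13.3% of all probes (5.74% and 7.57% on both arrays), with a median log2 of 0.32. With PACAP38 it was 23 higher and 9 lower (18 and 3 on both arrays), beside 6.39% and 8.19% (3.13% and 3.2% on both arrays), with a median of 0.21. By role, with saline, 15 of 37 antiviral effectors, 7 of 12 genes of antigen presentation, 6 of 14 sensors, 3 of 4 chemokines, 2 of 13 GTPases, 2 of 8 signalling genes and 1 of 8 regulatory factors were higher. With PACAP38 these were 10 of 37 antiviral effectors, 2 of 12 genes of antigen presentation, 5 of 14 sensors, 2 of 4 chemokines, 3 of 13 GTPases, 1 of 8 signalling genes and none (0) of the regulatory factors. Among the interferons themselves *Ifnb1* was called higher and *Ifna12*, *Ifng* and *Ifnl3* lower, but none of these 4 was well above background in every channel of that comparison, as 2 of the 12 were. Of the 5 receptor subunits *Ifnlr1* was higher (log2 1.59 and 1.08). The 7 higher genes of antigen presentation included the peptide transporters *Tap1* (1.14 and 1.37) and *Tap2* (0.62 and 0.85), and the immune checkpoint ligand *Cd274* (1.19 and 2.65). These genes were named after their values were seen.

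Among genes of the list well above background throughout, the highest mean PMCAO over sham values were those of *Socs3*, *Ccl5* and *Ifi204*. *Socs3* encodes a feedback inhibitor of cytokine receptors, *Ccl5* a chemokine and *Ifi204* a sensor of DNA. At 24 h with saline *Socs3* was at log2 3.24 and 2.98, *Ccl5* at 2.43 and 2.16 and *Ifi204* at 1.91 and 1.76. With PACAP38 they were at 2.24 and 2.13, 1.43 and 1.53, and 1.79 and 1.63. All 3 were thus above sham on every 24 h array. *Uba7* and *Jak1* were among the lowest of the genes well above background in the mean of 24 h and 6 h, at -0.96 and -0.62. Their 6 h values rest in part on sham 6 h array 2. *Jak1*, the receptor kinase, was at -0.31 and -2.08 at 6 h with saline and at 0.03 and -0.03 at 24 h.

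In PACAP38 over saline in PMCAO at 24 h, 17 of the 113 genes were lower and 2 higher, beside 8.18% and 2.99% of all probes, and 11 and 0 on both arrays, beside 3.75% and 0.823%. The lowest of those well above background was *Socs3* (log2 -1.11 and -1.06, 0.471-fold). *Ifnlr1*, a receptor subunit for type III interferon, followed with a mean of -0.98, and *H2-D1*, a class I antigen-presenting molecule that has near-identical copies, with -0.70. The highest of those were *Oasl2*, *Ifi203* and *Gbp6*, at means of 0.45, 0.32 and 0.30, which are below the limit, and the 2 genes called higher, *Ifng* and *Ifi44*, were not well above background throughout. Of the 12 genes of antigen presentation 3 were lower, *H2-D1*, *H2-K1* (log2 -0.66 and -0.61) and *Cd274* (-0.45 and -0.67). Antiviral effectors made up 5 of 12 well-measured lower genes, beside 33 of all 92 well-measured genes of the list. In sham at 24 h 3 of the 113 were lower, all 3 on both arrays and none (0) of them well above background throughout, beside 3.87% in the mean and 0.892% on both arrays, and 1 was higher, not on both arrays, beside 1.75% and 0.226%. In PMCAO at 6 h 4 were called each way, beside 5.41% higher and 6.9% lower, and none (0) on both arrays, beside 1.14% and 1.63%. Among the 82 genes well above background in PMCAO at 6 h, *Ifi47* (0.50), *Herc6* (0.47) and *Cd274* (0.41) were highest. *Tyk2* (-0.41), *Batf2* (-0.39) and *Trim21* (-0.33) were lowest among them.

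**Figure D4:**
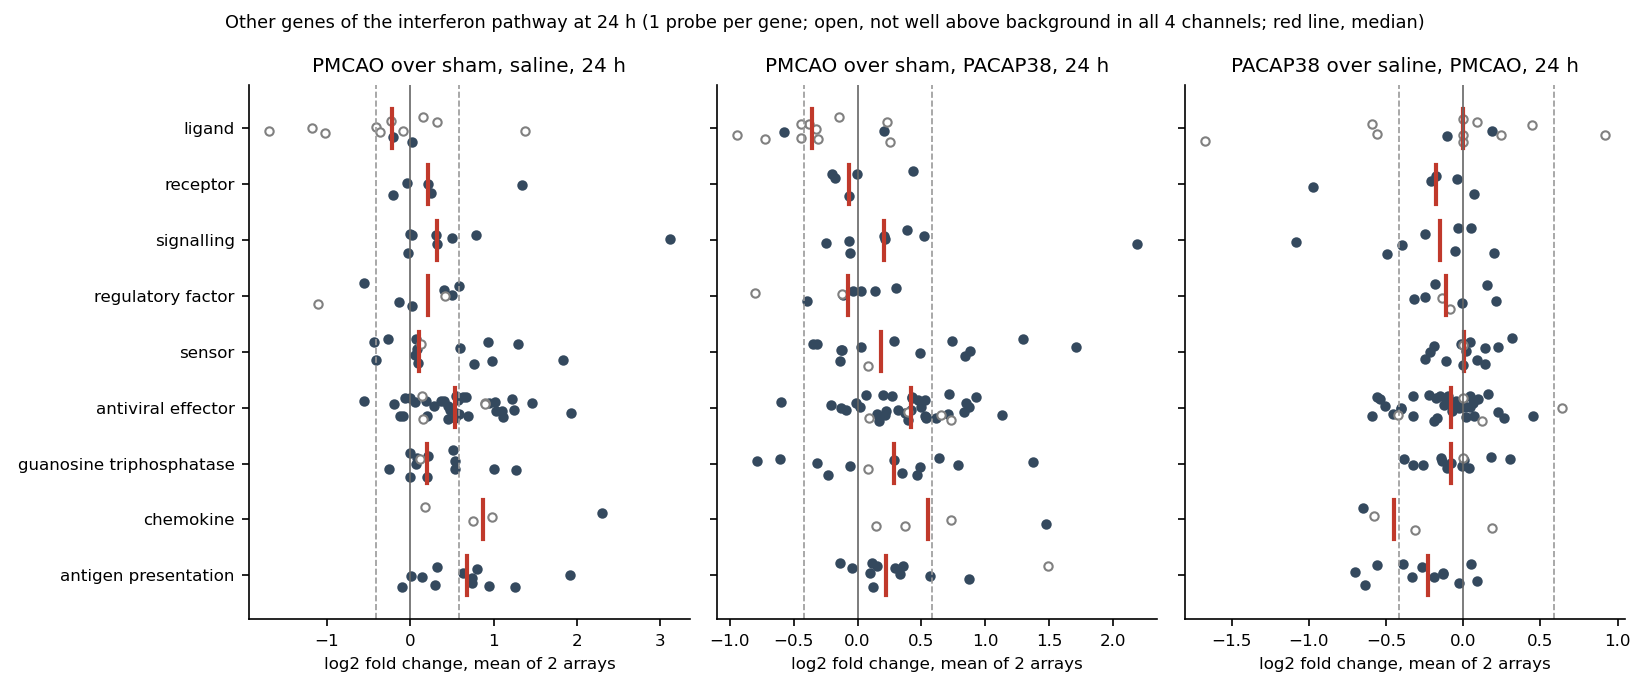
log2 values at 24 h of the interferon pathway genes by role, for PMCAO over sham with saline, for PMCAO over sham with PACAP38, and for PACAP38 over saline in PMCAO, each point a gene, open where a channel was not well above background, with the median of each role as a red line and a log2 axis of its own in each panel. With saline 38 of 113 genes lie past the 1.5-fold line, with PACAP38 23, and for PACAP38 over saline 2.

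Summed markers of neutrophils and monocytes were higher in PMCAO than in sham at 24 h with both treatments, while those of other cells did not all follow. The summed level of 9 neutrophil markers was 669 and 982 in sham (saline and PACAP38), 43201 in PMCAO with saline and 5130 in PMCAO with PACAP38. Of these 9 markers 7 were called lower with PACAP38 in PMCAO, with a median log2 of -2.91, and *Camp* and *Elane* were below background in all pools of that time. Monocyte markers summed to 9832 and 10336 in sham and to 15407 and 14272 in PMCAO. Of these 6 markers 3 were called lower and 0 higher with PACAP38 in PMCAO at 24 h, beside 8.18% and 2.99% of all probes. Their median log2 was -0.39. Endothelial markers, at 24176 and 17050 in PMCAO, and oligodendrocyte markers, at 149448 and 111854, were also lower with PACAP38, while microglial and macrophage markers were at 34221 and 30636. The markers of neurons summed to 106481 to 111856 over the 4 pools of 24 h. The 12 markers of T and natural killer cells summed to 3703 to 3847, with 6 to 8 of them below background in a pool and *Gzma* and *Prf1* below it in every pool. In PMCAO over sham at 24 h 2 of these 12 were called higher and 5 lower with saline, and 1 higher and 4 lower with PACAP38. Olfactory bulb markers, although the bulb was removed, were at 1898 in PMCAO with saline and at 304 with PACAP38, against 348 and 507 in sham. The part of these cells in the lower readings of *Rsad2*, *Irf1*, *Cxcl10* and the pathway genes with PACAP38, and in the differences between PMCAO and sham, was not tested.

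Across the 8 pools, the genes whose log2 levels ran most like the mean of the members were found among 14615 genes by Pearson's r, given as a description. *Cd244a*, a receptor of natural killer cells, was first with 0.976. *Tap1*, which encodes a transporter of antigen peptides, had 0.963, and *Gbp2*, which encodes a GTPase induced by interferon gamma, had 0.955. *Gbp2* ran from 343 in sham with PACAP38 at 24 h to 898 in PMCAO with saline at 24 h. The pools share slides, and the order depended on sham 6 h array 2: with it left out none (0) of the 10 stayed among the first 10, with *Gbp2* at 0.929 and *Tap1* at 0.595.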

How the data were processed

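The authors amplified and labelled the pooled RNA with an Agilent linear amplification kit for low RNA input, and extracted the scanned arrays with Agilent Feature Extraction (9.5.1.1 for the 6 h arrays and 9.5.3.1 for the 24 h arrays per the file headers), which also normalized the ratios. The deposited files hold, per spot, a log10 ratio of Cy5 over Cy3 after background subtraction and dye normalization, the processed and raw intensity of each channel, and flags. The deposited value table of the series held the same ratio, linear for the arrays with PACAP38 in Cy5 and as a signed fold score for the exchanged ones, and was used as an alternative. Second copies of 3 array files were identical and not used.

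Control spots and outlier spots were left out, spots of a probe were averaged, and the sign of the log ratio was changed where PACAP38 was in Cy3, giving PACAP38 over saline throughout. Channel levels were the processed intensity scaled to the mean 75th percentile. The 8 arrays were averaged by pair to 4 comparisons of each kind, counted as 1 replicate each. Tests used limma 3.58.1 in R 4.3.3 (lmFit, eBayes with trend) on 36121 probes, and were tested on simulated data with known changes. Other steps used Python 3.11.15 with numpy 2.4.6 and pandas 2.3.3. Signals were well above background for 62.1% to 76% of spots in a channel, and the number of pools limits the precision. Pathway genes were named by the 3 highest and 3 lowest means among genes well above background. Some genes that this rule names are not reported here. The members and lists were chosen with earlier results of these data known. Alternatives were normexp with loess, median or quantile scaling, outlier spots kept, all probes of a gene, each array alone, other limits, a filter on dim probes, no trend, and pool pairs left out in turn.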

Additional observations from a re-analysis of the deposited data

Results flagged for a closer look

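PMCAO over sham was higher at 24 h than at 6 h for 5 members by the limma test of that difference on the brightest probe of each gene: *Mx1* by 3.22, *Cxcl10* by 2.71, *Irf1* by 1.05, *Rsad2* by 1.05 and *Ifit3* by 0.59 on the log2 scale. The second, uncertain *Ifit3* probe was called in the opposite direction (-1.91), and the other probes of *Mx1*, *Irf1* and *Rsad2* were not called. None (0) of the 5 passed once sham 6 h array 2 was left out, with values of 0.75 for *Mx1*, 1.38 for *Cxcl10*, 0.41 for *Irf1*, 0.94 for *Rsad2* and 0.22 for *Ifit3*, and *Mx1* was near background on most arrays. Each condition was a single pool, so no group had enough samples to look for a sample far from the others.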

How the results depend on the processing

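No paired analysis was possible because the replicate number marks the dye orientation of the same pooled RNA, which is averaged to 1 value. The count of probes for mean PMCAO over sham (1) became 0 with normexp and loess, with outlier spots kept, with quantile normalization and without the trend, 3 among probes well above background in at least 8 channels, and 0 to 4 with a pool pair left out. For PMCAO over sham from 6 h to 24 h it fell from 11770 to 77 without sham 6 h array 2, chosen after seeing the data. For PACAP38 over saline from 6 h to 24 h it rose from 0 to 1 with normexp and loess and with the filter at 8 channels.

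The members' median log2 for PACAP38 over saline was -0.0348 in sham 6 h with normexp and loess (changed together in what follows), and -0.13 to -0.0512 from single arrays. In PMCAO 24 h it was 0.0361 with normexp and 0.0769 with all probes of a gene. For PMCAO over sham it was -0.21 to 0.23 from single arrays at 6 h with saline. At 24 h it was 0.39 with normexp, 0.72 with quantile normalization and 0.72 to 0.84 from single arrays with saline, and 0.40 with normexp and 0.84 to 1.11 from single arrays with PACAP38. At 24 h 3 members (saline) and 4 (PACAP38) were higher with normexp, counts added after seeing the data. With 1.5-fold both ways, 1 member was lower in sham 6 h and 1 in PMCAO over sham 6 h with saline. On both arrays, 0 were lower in sham 6 h, 0 higher or lower in PMCAO 6 h, 0 higher in PMCAO 24 h, 0 lower in PMCAO over sham 6 h with saline, and 1 higher and 0 lower with PACAP38. From single arrays *Mx1* ranged from -1.49 to 0.0550 for PACAP38 over saline in sham 6 h and from -4.79 to 1.82 for PMCAO over sham 6 h with PACAP38, and *Irf1* from -1.17 to 0.15 for PMCAO over sham 6 h with saline, where it was 0.0782 with normexp. The cause of these changes was not tested. Of the alternative values of single genes within a comparison, 351 moved by less than the spread between arrays, 78 by more, and 4, those of *Mx1* and *Irf1* given above, passed a limit in the mean of both arrays and changed sign. Sign was not counted for values within the limits.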
